A study of Mus musculus with 44 samples.

Results

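The embryos described here came from 1 cross of a study of Dppa2 and Dppa4, a pair of neighbouring genes for chromatin-associated proteins whose transcripts are present in the mouse oocyte. Females lacking both genes in their oocytes (Dppa2/4m-) were mated with Dppa2/4+/- males, and the embryos of 2 such matings, labelled mating 1 and mating 2, were sequenced singly at the two-cell stage. The embryos of a mating are called a litter here, since the labels give the mating and do not say whether each was of a single dam. All embryos labelled with this cross were taken, which gave 15 of the 44 embryos in the series and 2 of its 6 litters. Litter 1 held 7 embryos and litter 2 held 8.

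In the mothers, conditional alleles of both genes had been deleted by a Cre recombinase under the Zp3 promoter, which is active in growing oocytes, so every embryo came from an oocyte meant to lack both genes. Each embryo then inherited either an intact or a deleted pair of alleles from its sire. The former are labelled HET2 and called Dppa2/4+/- here, and the latter are labelled HOM and called Dppa2/4-/-. Litter 1 had 4 Dppa2/4+/- and 3 Dppa2/4-/- embryos, and litter 2 had 1 Dppa2/4+/- and 7 Dppa2/4-/- embryos. Mating was natural and the mice were of the C57Bl/6 background. The other embryos of the series came from Dppa2/4m- females and wild-type sires (15 embryos) and from control females and wild-type sires (14 embryos), in 2 litters each.

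The question of the comparison was which classes of genes separated the litters once the genotype of the embryo was in the model. The litters had the same cross, and dam, sire, day and the handling of each collection, as far as these differed, cannot be told apart. With 1 mating on each side, the replicates are embryos of the same mating. The p-values below therefore measure the spread between embryos of a mating and not between matings.

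The mouse two-cell embryo is the stage at which the store of maternal mRNA is being cleared while the embryo's own genome is switched on, a step called zygotic genome activation (ZGA). The maternal store holds oocyte-specific transcripts, such as those for the zona pellucida, the subcortical maternal complex and the oocyte cell-cycle machinery. Activation brings a short burst of two-cell-specific transcripts, Zscan4 and Tcstv genes among them, and with it many transcripts for ribosome, proteasome and mitochondrial proteins. At a given hour, an embryo's transcripts hold a mixture of what is left of the former and what has been made of the latter.

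Expression was given as log2 RPM, the number of reads in a gene scaled to a fixed library total. An RPM is a share of the embryo's library total, so fewer molecules of a transcript and a smaller share among more molecules cannot be told apart. The library total behind the RPM values was 698469 to 2438144 (median 1108889) in litter 1 and 418558 to 3048642 (median 747523) in litter 2. Of these, the reads assigned to genes of the table were 536848 to 1778282 in litter 1 and 331279 to 2401766 in litter 2. Given genotype, log2 total reads differed by -0.35 (litter 2 minus litter 1, exact permutation within genotype, two-sided p = 0.54). The number of genes with a read was 11633 to 13674 in litter 1 and 10726 to 13237 in litter 2, a difference of -1184 given genotype (exact permutation p = 0.04, adjusted over 4 library measures 0.08). Reads from mitochondrial mRNAs were 5.43% to 12.2% of an embryo's library total in litter 1 and 7.01% to 20.1% in litter 2, where the Dppa2/4+/- embryo (20.1%) and Dppa2/4-/- embryos e (17%) and f (19.4%) lay above all others. The difference in mitochondrial share was 6.17 percentage points (exact permutation p = 0.033, adjusted 0.08), and without the Dppa2/4+/- embryo of litter 2 it was 3.89 points (exact permutation p = 0.133). The part of depth and of mitochondrial share in the gene differences below was not tested, beyond the fits named beside them.

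Dppa2 and Dppa4 were read in every embryo as a check of the labels. Dppa2 gave 109, 112, 19 and 76 reads in Dppa2/4+/- embryos a to d of litter 1, and 7, 3 and 5 reads in its Dppa2/4-/- embryos a to c. In litter 2 it gave 814 reads in the Dppa2/4+/- embryo e and 0 in each of Dppa2/4-/- embryos d to j. Dppa4, from the neighbouring gene on chromosome 16, gave 49, 42, 27 and 40 reads in the Dppa2/4+/- embryos of litter 1, 0 in each of its Dppa2/4-/- embryos and 94 in the Dppa2/4+/- embryo of litter 2. The Dppa2/4-/- embryos of litter 2 had 0 to 5 reads of Dppa4. The genotypes were assigned in the study from these transcripts, so the match is no independent check. Neither gene passed the test between litters (limma adjusted p = 0.78 for Dppa2 and 0.74 for Dppa4). All 10 two-cell markers were detected in the cross. Of the markers of other cells, all 6 sperm genes, 3 of 6 blood genes, 3 of 7 oviduct genes (Foxj1, Pax8 and Wfdc2) and 4 of 14 cumulus and granulosa genes (Cyp11a1, Fshr, Has2 and Ptx3) were at 0 in every embryo. The summed level of the cumulus and granulosa markers was 3.61 to 52.0 RPM in litter 1 and 2.90 to 23.7 RPM in litter 2, that of the oviduct markers was 44 to 157 RPM and 60.8 to 174 RPM, and that of the blood markers was 0 to 4.15 RPM and 0 to 6.10 RPM.

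Among the genes that separated the litters, some belong to the maternal store and some are switched on by the embryo, and many are in neither list. Lower in litter 2 were oocyte-derived transcripts such as Omt2b, Btg4 and Wee2, the Tcl1 and Tcl1b genes, which are also known as oocyte transcripts, and the two-cell-specific Tcstv genes tested, with Zscan4d. Higher in litter 2 were some members of the ribosomal, proteasome, respiratory chain and mitochondrial import genes, and the count of each class is given with it below. Of 9580 genes tested, 1127 (11.8%) passed an adjusted p of 0.05 (limma, genotype and litter as terms, Benjamini-Hochberg over all genes tested). They comprised 519 genes higher in litter 2 (5.42% of those tested) and 608 lower in litter 2 (6.35%). The median difference (litter 2 minus litter 1, log2 RPM, here and below) was 1.93 among the higher genes, -2.01 among the lower genes and -0.018 over all genes tested. The embryos of the litters did not overlap for 149 genes that were higher in litter 2 (1.56% of all tested) and for 178 that were lower (1.86%), of which 135 and 160 had passed the test.

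The Dppa2/4-/- embryos alone, 3 against 7, gave 387 genes (4.04%), 232 higher and 155 lower, of which 357 were among the 1127. Without the single Dppa2/4+/- embryo of litter 2, 377 genes passed. Without Dppa2/4-/- embryo b of litter 1, 426 genes passed, and without embryo c of litter 1, 724 passed. Whether the litter difference itself differed between the genotypes could hardly be tested, since litter 2 had 1 Dppa2/4+/- embryo. The limma interaction gave 0 of 9580 genes at an adjusted p of 0.05, 386 at an unadjusted p under 0.05, and 1 at an adjusted p of 0.05 with reads thinned to equal depth. Litter took up 18.6% of the variance over genes after genotype (exact permutation within genotype, p = 0.00167, the smallest that 600 assignments allow). Genotype fitted alone took up 13.4%, a figure that is not adjusted for litter. Among Dppa2/4-/- embryos alone litter took up 23.6% (exact permutation p = 0.0083, the smallest that 120 assignments allow).

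Differences between litters were also present in the other crosses, by the same test. Among the embryos of Dppa2/4m- females and wild-type sires, 2816 of 9557 genes (29.5%) differed between the litters, 820 higher and 1996 lower in mating 2. Among the embryos of control females, 34 of 8975 genes (0.379%) differed, with 10 embryos in 1 litter and 4 in the other.

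**Figure D1:**
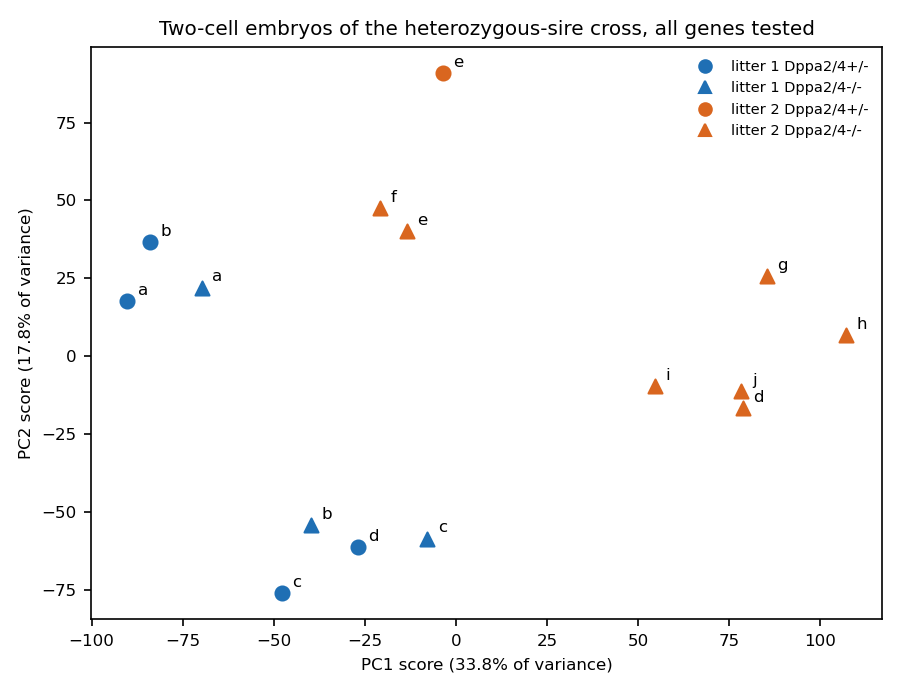
Principal components of log2 RPM over the 9580 genes tested, with 1 point for each of the 15 embryos. The horizontal axis is component 1 (33.8% of the variance) and the vertical axis is component 2 (17.8%), and colour and symbol give litter and genotype. Litter 1 lies at negative values of component 1 (-90.3 to -7.85), and litter 2 splits into 3 embryos between -20.9 and -3.62 and 5 embryos between 54.6 and 107.

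The plot of principal components showed that neither litter was uniform. On component 1, the embryos of litter 1 lay between -90.3 and -7.85 and those of litter 2 between -20.9 and 107, with Dppa2/4-/- embryos d, g, h, i and j of litter 2 at 54.6 or above. The Dppa2/4+/- embryo and Dppa2/4-/- embryos e and f of litter 2 lay at -3.62, -13.5 and -20.9, beside the nearest embryos of litter 1. On component 2 those 3 embryos lay at 90.9, 40.2 and 47.4, and litter 1 was itself divided. Its Dppa2/4+/- embryos a and b and its Dppa2/4-/- embryo a had values of 17.8, 36.7 and 22.0, and the other 4 had values of -76.0 to -54.1. The split of each litter did not follow the genotype labels.

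Sequences at the start of 5 genes are given to show where the leading classes lie in the genome. Each is the RefSeq promoter on GRCm38.p6, 250 bases before the annotated start and 50 after it, on the + strand, and the capitals mark the bases after the start. The annotated start lay 27 to 1005 bases from the start of the deposited gene probe. Tcl1b2 (chr12:105146769-105147068) and Tcl1b4 (chr12:105202145-105202444) stand for the Tcl1b genes, Omt2b (chr9:78327780-78328079) for the maternal store, and Rpl14 (chr9:120571267-120571566) and Timm22 (chr11:76406675-76406974) for the ribosomal and mitochondrial genes.
Tcl1b2: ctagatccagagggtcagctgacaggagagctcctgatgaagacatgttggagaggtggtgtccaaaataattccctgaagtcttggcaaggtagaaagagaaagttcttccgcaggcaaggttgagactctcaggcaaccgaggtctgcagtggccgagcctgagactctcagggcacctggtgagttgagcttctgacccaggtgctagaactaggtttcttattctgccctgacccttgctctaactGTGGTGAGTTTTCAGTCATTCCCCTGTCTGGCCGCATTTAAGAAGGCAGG
Tcl1b4: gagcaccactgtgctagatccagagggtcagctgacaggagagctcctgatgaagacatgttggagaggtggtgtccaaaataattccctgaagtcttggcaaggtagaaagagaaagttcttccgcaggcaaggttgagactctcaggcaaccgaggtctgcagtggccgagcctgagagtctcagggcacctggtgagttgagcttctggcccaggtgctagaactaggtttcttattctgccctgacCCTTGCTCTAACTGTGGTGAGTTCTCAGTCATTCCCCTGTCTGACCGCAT
Omt2b: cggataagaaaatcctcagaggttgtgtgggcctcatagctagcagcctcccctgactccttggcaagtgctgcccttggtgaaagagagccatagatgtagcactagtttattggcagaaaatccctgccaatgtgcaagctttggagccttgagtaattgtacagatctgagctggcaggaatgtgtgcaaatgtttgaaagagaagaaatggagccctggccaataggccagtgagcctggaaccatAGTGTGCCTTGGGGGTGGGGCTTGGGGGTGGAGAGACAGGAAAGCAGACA
Rpl14: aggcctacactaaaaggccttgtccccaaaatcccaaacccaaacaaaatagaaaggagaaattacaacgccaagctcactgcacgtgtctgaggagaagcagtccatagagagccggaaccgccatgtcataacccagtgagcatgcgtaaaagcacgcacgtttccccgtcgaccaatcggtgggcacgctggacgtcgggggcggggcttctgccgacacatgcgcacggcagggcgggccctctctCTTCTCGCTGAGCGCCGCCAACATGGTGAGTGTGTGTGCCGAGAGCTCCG
Timm22: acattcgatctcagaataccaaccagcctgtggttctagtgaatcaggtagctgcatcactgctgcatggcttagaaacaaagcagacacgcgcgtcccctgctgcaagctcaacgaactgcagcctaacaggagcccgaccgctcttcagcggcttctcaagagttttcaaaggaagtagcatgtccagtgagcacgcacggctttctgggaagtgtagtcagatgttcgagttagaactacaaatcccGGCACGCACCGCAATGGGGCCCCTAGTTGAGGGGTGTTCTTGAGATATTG
The windows of Tcl1b2 and Tcl1b4 shared 283 of 287 aligned bases (98.6%) at an offset of 13 bases, and whether the counting split reads between their transcripts was not tested. The number of CpG dinucleotides was 4 in each of the Tcl1b windows and 1 in that of Omt2b, against 23 in that of Rpl14 and 14 in that of Timm22. These are descriptions of 5 windows that were chosen with the results known.

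The maternal store was described first. Omt2b, an oocyte maturation transcript on chromosome 9 (78327589 to 78329620, + strand), had a log2 RPM of 12.44 to 12.70 (median 12.62) in litter 1 and 9.85 to 11.88 (median 10.85) in litter 2. Every embryo of litter 2 lay below every embryo of litter 1, and the difference was -1.74 ± 0.26 (SE, adjusted p = 8.95e-05). The related Omt2a ranged from 11.88 to 12.29 in litter 1 and from 9.63 to 11.48 in litter 2 (difference -1.38 ± 0.26, adjusted p = 0.00123), again with no overlap. In the list of oogenesins and Omt2 genes, 3 of 6 members passed, all lower in litter 2, beside 6.35% of all genes tested, with Oog2 as the third (-1.18 ± 0.39, adjusted p = 0.0477). The median difference of the list was -1.18. The number lower was 2 under median re-centring, with thinned reads, in Dppa2/4-/- embryos alone, or without Dppa2/4-/- embryo b or c of litter 1. How the counting shared reads between Omt2a and Omt2b was not tested, so their separate values are uncertain.

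Btg4 and Wee2 act at the transition itself. Btg4, the adaptor that brings the CCR4-NOT deadenylase to maternal mRNAs (chromosome 9, 51060901 to 51119875, + strand), had a log2 RPM of 9.76 to 11.10 (median 10.05) in litter 1 and 6.79 to 8.41 (median 7.95) in litter 2. The litters did not overlap and the difference was -2.55 ± 0.30 (adjusted p = 4.51e-06). Wee2, the oocyte kinase that holds CDK1 inactive (chromosome 6, 40439088 to 40466813, + strand), had values of 8.21 to 9.01 (median 8.39) against 4.98 to 6.70 (median 5.98). It too showed no overlap, with a difference of -2.49 ± 0.32 (adjusted p = 1.38e-05).

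Btg4 belongs to a list of maternal mRNA decay factors. Of its 15 members tested, Btg4 included, 4 were lower and 1 was higher in litter 2, beside 6.35% and 5.42% of all genes tested, and the median difference was -0.52. That median was -0.29 without Dppa2/4-/- embryo b of litter 1 and -0.83 without the Dppa2/4+/- embryo of litter 2. The number lower was 3 in Dppa2/4-/- embryos alone, without the Dppa2/4+/- embryo of litter 2, or without Dppa2/4-/- embryo c of litter 1. It was 5 under median re-centring or upper quartile scaling. Pan3, a subunit of the PAN2-PAN3 deadenylase, had a log2 RPM of 8.93 to 9.62 in litter 1 and 7.85 to 8.58 in litter 2 (-1.18 ± 0.24, adjusted p = 0.00201) and did not overlap. The deadenylase subunit Cnot7 (-1.35 ± 0.32, adjusted p = 0.00623) and the decapping activator Dcp1a (-1.36 ± 0.39, adjusted p = 0.0205) were lower with overlap. The reader of methylated mRNA Ythdf2 was the 1 member that was higher (0.75, adjusted p = 0.049). No member was higher under median re-centring or upper quartile scaling, with thinned reads, or in Dppa2/4-/- embryos alone. The same held when any of 9 single embryos was left out, among them Dppa2/4-/- embryos a, b and c of litter 1 and the Dppa2/4+/- embryo of litter 2.

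Among genes for storage and translational control of maternal mRNA, 4 of 10 were lower in litter 2 and none was higher, beside 6.35% lower over all genes tested, and the median difference was -0.39. Eif4e1b, an oocyte form of the cap-binding protein, had a log2 RPM of 5.27 to 7.54 (median 6.87) in litter 1 and 1.10 to 5.58 (median 3.62) in litter 2, where 1.10 is the floor given to genes with no or few reads. Its difference was -3.46 ± 0.70 (adjusted p = 0.0021), and 1 or more embryos overlapped. The RNA-binding proteins Zar1 (-2.28 ± 0.76, adjusted p = 0.0463) and Dazl (-1.22 ± 0.33, adjusted p = 0.0168) and the P-body protein Lsm14b (-1.46 ± 0.45, adjusted p = 0.0322) were the others. The most abundant member, Eif4enif1, had medians of 8.29 and 8.29 and did not pass (adjusted p = 0.328). Without Dppa2/4-/- embryo b of litter 1, without the Dppa2/4+/- embryo of litter 2, or in Dppa2/4-/- embryos alone, 1 member of the list passed in place of 4. The median was -0.69 without Dppa2/4-/- embryo a of litter 1 and -0.23 without the Dppa2/4+/- embryo of litter 2.

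The egg coat and secreted oocyte factors gave 3 lower and 1 higher of 10 tested, beside 6.35% and 5.42% of all genes tested, with a median difference of -1.10. Oosp1, an oocyte-secreted protein, had a log2 RPM of 8.14 to 10.02 (median 9.05) in litter 1 and 6.40 to 7.82 (median 7.14) in litter 2, with no overlap (-2.11 ± 0.31, adjusted p = 8.17e-05). The related Oosp3 was lower by the same order (-2.21 ± 0.43, adjusted p = 0.00141) with overlap. Bmp15, a growth factor of the oocyte, ranged from 9.49 to 10.33 in litter 1 and from 6.43 to 9.54 in litter 2 (-1.88 ± 0.37, adjusted p = 0.00163). The member that was higher was Cd9, a membrane protein needed for sperm-egg fusion, with 1.48 ± 0.45 (adjusted p = 0.0292). It did not pass with thinned reads, or without Dppa2/4-/- embryos a or b of litter 1 or g or j of litter 2. Without Dppa2/4-/- embryo a of litter 1, 5 members were lower and the median was -1.74.

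Of the subcortical maternal complex, a protein assembly under the egg membrane, 2 of 8 members passed, both lower, beside 6.35% lower over all genes tested. These were Nlrp4f, with 7.75 to 8.79 in litter 1 and 3.74 to 7.38 in litter 2 (-1.61 ± 0.42, adjusted p = 0.0137, no overlap), and Zbed3 (-1.18 ± 0.33, adjusted p = 0.0187). All 8 members had a difference below 0 and the median was -0.95. Neither passed without Dppa2/4-/- embryo b of litter 1, and 1 passed in Dppa2/4-/- embryos alone. Of 8 other oocyte Nlrp genes, 4 were lower, Nlrp9b, Nlrp9a, Nlrp4a and Nlrp9c, and the median was -1.49. Nlrp9c, the most abundant of these, had a log2 RPM of 8.19 to 9.74 (median 8.92) in litter 1 and 5.71 to 8.44 (median 7.34) in litter 2 (-1.41 ± 0.36, adjusted p = 0.0121). The count was 0 without Dppa2/4-/- embryo b of litter 1 and 2 without its embryo a, without the Dppa2/4+/- embryo of litter 2, or in Dppa2/4-/- embryos alone. The score of the Nlrp list, the mean over its members of log2 RPM centred on each gene's mean, was 0.32 to 1.13 in litter 1 and -1.39 to 0.05 in litter 2, with no overlap. All 12 oocyte Fbxw genes tested were below 0 (median -0.95), but only Fbxw20 passed (-2.13 ± 0.70, adjusted p = 0.0425), beside 6.35% of all genes tested. No Fbxw gene passed in Dppa2/4-/- embryos alone, or without any 1 of Dppa2/4+/- embryos a, b and d and Dppa2/4-/- embryos b and c of litter 1, or of the Dppa2/4+/- embryo and Dppa2/4-/- embryos g and i of litter 2, and 2 passed without Dppa2/4-/- embryo d or f of litter 2. The Nlrp9 and Fbxw genes are families of related genes, and how the counting shared reads within them was not tested.

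**Figure D2:**
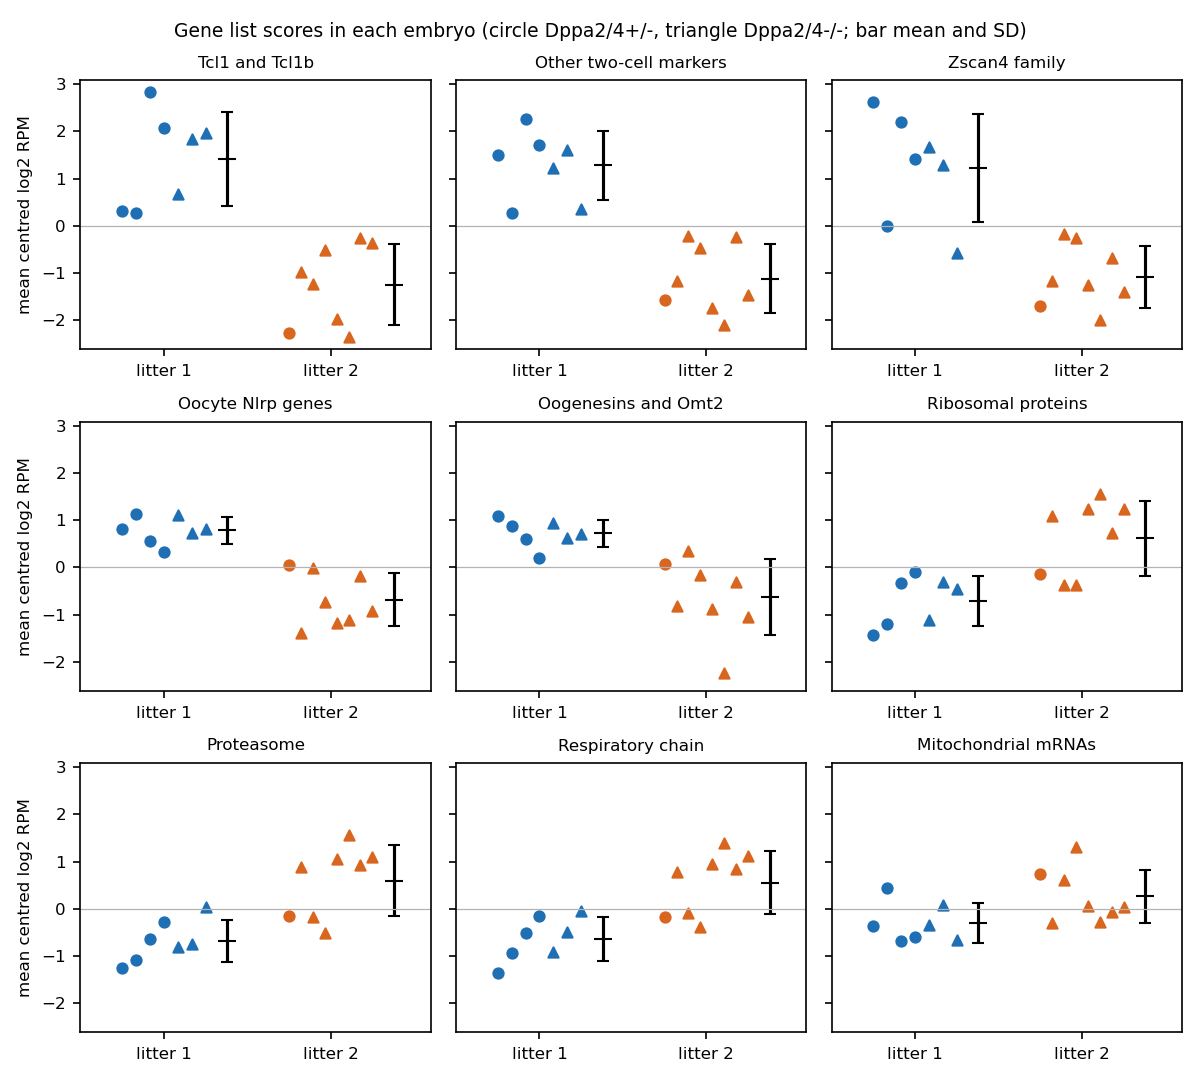
Scores of 9 gene lists, with 1 point for each embryo, litter 1 on the left and litter 2 on the right of each panel, circles for Dppa2/4+/- and triangles for Dppa2/4-/- embryos, and a black bar for the mean and SD of each litter. The vertical axis is the mean over the members tested of log2 RPM centred on each gene's mean over the 15 embryos. The litters do not overlap for the Tcl1 and Tcl1b genes, the other two-cell markers or the oocyte Nlrp genes, and 5 of 8 embryos of litter 2 lie above all of litter 1 for ribosomal proteins and for proteasome subunits.

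The Tcl1 and Tcl1b genes, known from both oocytes and two-cell embryos, are described next. All 6 were lower in litter 2, beside 6.35% of all genes tested, in a list that was drawn up after the values had been seen. Tcl1, the coactivator of AKT kinases that gives the family its name, had a log2 RPM of 8.08 to 12.01 (median 10.64) in litter 1 and 6.29 to 8.56 (median 7.88) in litter 2 (-2.68 ± 0.45, adjusted p = 0.000361). Tcl1b4 (chromosome 12, 105201957 to 105206993, + strand) ranged from 7.03 to 9.68 (median 8.35) in litter 1 and from 3.97 to 6.57 (median 5.08) in litter 2. Its litters did not overlap and its difference was -3.28 ± 0.46 (adjusted p = 5.51e-05). Tcl1b2, whose promoter is printed above, gave -3.10 ± 0.46 (adjusted p = 8.23e-05), and Tcl1b3 and Tcl1b1 gave -2.81 ± 0.38 and -2.73 ± 0.39. The median of the 6 genes was -2.77, and all 6 passed whichever single embryo was left out, and 5 in Dppa2/4-/- embryos alone.

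Litter 1 was not even in these genes. The score of the Tcl1 and Tcl1b genes was 0.28 to 0.67 in Dppa2/4+/- embryos a and b and Dppa2/4-/- embryo a, and 1.84 to 2.83 in the other 4 embryos of litter 1. In litter 2 it was -2.36 to -0.26. The 3 embryos of litter 1 with the lower scores were those that stood apart on component 2.

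The list of other two-cell markers holds genes switched on at this stage. Of 13 members tested 9 were lower and none was higher, with a median of -2.43, beside 6.35% lower over all genes tested. The number lower was 6 to 10 when 1 embryo was left out and 4 in Dppa2/4-/- embryos alone. Their score was 0.28 to 2.27 in litter 1 and -2.11 to -0.22 in litter 2. Tcstv1, of a two-cell-specific gene cluster on chromosome 13, had a log2 RPM of 2.17 to 7.01 (median 5.29) in litter 1 and 1.10 to 3.40 (median 1.10) in litter 2 (-3.63 ± 0.74, adjusted p = 0.00221). Tcstv3 ranged from 4.49 to 7.25 in litter 1 and from 1.10 to 5.02 in litter 2 (-3.24 ± 0.68, adjusted p = 0.00293). AF067061, from the same chromosome, gave 63, 15, 81 and 36 reads in the Dppa2/4+/- and 50, 50 and 6 reads in the Dppa2/4-/- embryos of litter 1, and 0 to 1 reads in each embryo of litter 2. Sp110, the most abundant marker, did not pass (medians 8.95 and 8.79, adjusted p = 0.61), though all 13 members had a difference below 0. The 5 genes of the Tcstv cluster that were tested were all lower, a count that did not change when any single embryo was left out (median -3.60), and 3 of the 5 were lower in Dppa2/4-/- embryos alone. These genes form a family, and how the counting shared reads between them was not tested, so their separate values are uncertain.

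Of the Zscan4 family, 3 of 8 members in the table reached the level for testing and 2 were lower, beside 6.35% of all genes tested. Zscan4d had a log2 RPM of 5.16 to 6.01 (median 5.48) in litter 1 and 1.10 to 4.92 (median 3.11) in litter 2, with no overlap (-2.63 ± 0.60, adjusted p = 0.00533). The annotated pseudogene Zscan4-ps3 was the other (-2.11 ± 0.68, adjusted p = 0.0408), and neither passed without the Dppa2/4+/- embryo of litter 2 or in Dppa2/4-/- embryos alone. The deubiquitinase gene Usp17lc was lower (-3.31 ± 0.61, adjusted p = 0.00102) and Usp17lb did not pass (-1.46 ± 0.59, adjusted p = 0.0948). None of 3 Tdpoz genes passed, and of 11 Prame-like genes 2 were lower, Pramef25 and Pramef8, beside the same 6.35%.

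The Obox homeobox genes, of which all 7 tested passed, beside 11.8% of all genes tested, split into both directions. Obox8 (chromosome 7, 14331436 to 14333557, - strand) had a log2 RPM of 4.67 to 5.69 (median 5.17) in litter 1 and 7.29 to 8.47 (median 8.04) in litter 2. It was higher in every embryo of litter 2 (2.69 ± 0.32, adjusted p = 4.51e-06). Obox6 (chromosome 7, 15833241 to 15839678, - strand) had 6.75 to 8.04 against 8.30 to 9.56, also without overlap (1.02 ± 0.26, adjusted p = 0.012). Lower in litter 2 were Obox1 (-2.99 ± 0.66), Obox7 (-2.98 ± 0.64), Obox2 (-2.38 ± 0.65), Obox5 (-2.33) and Obox3 (-1.80). The members are related genes on 1 chromosome, and the probe of Obox1 overlaps those of Obox2 and Obox3, so its value is uncertain. When 1 embryo was left out, 1 to 2 members were higher and 3 to 5 were lower, and in Dppa2/4-/- embryos alone 1 was higher and 2 were lower.

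Genes for making and degrading proteins had more members higher than lower in litter 2, though most members did not pass. Of 82 cytoplasmic ribosomal protein genes, 22 were higher and none was lower, beside 5.42% higher over all genes tested. A difference above 0 was found in 81 (median 1.07, against -0.018 over all genes tested). Rpl14, of the large subunit (chromosome 9, 120571444 to 120574654, + strand), had a log2 RPM of 1.10 to 3.73 (median 3.03) in litter 1 and 4.82 to 7.21 (median 6.54) in litter 2. The litters did not overlap and the difference was 3.38 ± 0.61 (adjusted p = 0.000804). Rpl35a, Rps27 and Rpl39 followed with 2.63 ± 0.68, 2.21 ± 0.49 and 2.08 ± 0.48 (adjusted p = 0.0128, 0.00438 and 0.00574). Rplp0, the most abundant member, did not pass (medians 9.27 and 9.78, adjusted p = 0.682).

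The ribosomal class divided litter 2. Summed over the list, the level was 3152 to 7257 RPM (median 5515) in litter 1 and 5597 to 18869 RPM (median 12869) in litter 2. Within litter 2 the sum was 6925 RPM in the Dppa2/4+/- embryo and 5597 and 5907 RPM in Dppa2/4-/- embryos e and f, inside the range of litter 1, and 11635 to 18869 RPM in the other 5. Those 3 embryos had the 3 highest mitochondrial shares of the cross. The number of members that passed was 8 without the Dppa2/4+/- embryo of litter 2, 10, 11 and 13 without Dppa2/4-/- embryos b, c and a of litter 1, 13 and 14 without embryos g and j of litter 2, and 34 and 36 without embryos e and f of litter 2. It was 13 in Dppa2/4-/- embryos alone, and no member was lower in any of these.

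Nucleolar and rRNA processing factors gave 7 higher of 32 (median 0.69), beside 5.42% of all genes tested, among them Wdr75, a component of the small-subunit processome, with 5.68 to 6.60 in litter 1 and 6.90 to 7.88 in litter 2 (1.35 ± 0.31, adjusted p = 0.00617, no overlap), and the abundant nucleophosmin gene Npm1 (1.04 ± 0.25, adjusted p = 0.00838). The count was 1 without the Dppa2/4+/- embryo of litter 2 or in Dppa2/4-/- embryos alone, and 11 without Dppa2/4-/- embryo f. Translation initiation and elongation factors gave 13 higher and 2 lower of 62 (median 0.46), beside 5.42% and 6.35% of all genes tested. Eef1akmt1, a methyltransferase of the elongation factor eEF1A, had a log2 RPM of 1.32 to 4.25 in litter 1 and 4.38 to 6.93 in litter 2 (3.21 ± 0.59, adjusted p = 0.000927). The lower members were Eif4e1b, the oocyte form described above, and Eif2ak4, a kinase that restrains initiation (-2.38 ± 0.70, adjusted p = 0.0252). The number higher was 6 without Dppa2/4-/- embryo b of litter 1, and the median was 0.27 without its embryo a and 0.75 without the Dppa2/4+/- embryo of litter 2.

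Of 37 proteasome genes, 15 were higher and 1 was lower in litter 2, beside 5.42% and 6.35% of all genes tested, and the median was 1.02. Psma6, a core subunit (chromosome 12, 55384222 to 55418454, + strand), ranged from 3.69 to 5.62 (median 4.77) in litter 1 and from 5.57 to 8.33 (median 7.69) in litter 2 (2.54 ± 0.43, adjusted p = 0.000374). Psmb2 had 3.71 to 5.16 against 5.66 to 7.97, with no overlap (2.31 ± 0.42, adjusted p = 0.000927). Lower in litter 2 was Psme4, the proteasome activator PA200, with 8.87 to 10.03 in litter 1 and 7.46 to 9.03 in litter 2 (-1.08 ± 0.27, adjusted p = 0.0105). Psme4 did not pass under median re-centring (adjusted p = 0.062), with no filter on level, or without Dppa2/4-/- embryo a or b of litter 1 (adjusted p = 0.0515 and 0.0503). The number higher was 5 without Dppa2/4-/- embryo b of litter 1 and 6 without the Dppa2/4+/- embryo of litter 2.

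Splicing factors gave 5 higher and none lower of 45 (median 0.40). Srsf6 had 2.84 to 5.28 in litter 1 and 5.67 to 6.93 in litter 2, with no overlap (2.01 ± 0.45, adjusted p = 0.00491). Heat shock proteins and the chaperonin gave 3 of 23 (median 0.42), which were Hspa4 (1.39 ± 0.32, adjusted p = 0.00562), Cct7 and Tcp1. The shares of these lists that were higher, 5 of 45 and 3 of 23, stand beside 5.42% of all genes tested, and with 1 embryo left out they were 2 to 8 and 1 to 6, and 3 and 3 in Dppa2/4-/- embryos alone. The median of the splicing factors was 0.67 without the Dppa2/4+/- embryo of litter 2.

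Nuclear genes for mitochondrial proteins had members that were higher as well. Of 70 respiratory chain genes tested 10 were higher and none was lower (median 1.00), beside 5.42% higher over all genes tested. Their score lay above all of litter 1 in 5 of 8 embryos of litter 2. It was -0.17 in the Dppa2/4+/- embryo and -0.09 and -0.39 in Dppa2/4-/- embryos e and f of litter 2, against -1.36 to -0.05 in litter 1. Sdhd, the membrane anchor of complex II, had a log2 RPM of 1.10 to 3.33 (median 1.88) in litter 1 and 2.71 to 6.55 (median 4.72) in litter 2 (3.04 ± 0.67, adjusted p = 0.0042). Uqcr11, Ndufs7 and Cox7c followed, with 2.75 ± 0.70, 2.68 ± 0.81 and 2.59 ± 0.63. The number was 4 without Dppa2/4-/- embryo b of litter 1 or in Dppa2/4-/- embryos alone. Of all 9580 genes tested, 196 and 232 were higher in these fits. The number of respiratory chain genes was 5 without the Dppa2/4+/- embryo of litter 2, and 16 without embryo e or embryo f of litter 2.

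The import machinery and the mitochondrial ribosome were listed after the values had been seen. Of 20 import genes 10 were higher and 1 was lower (median 1.28), beside 5.42% and 6.35% of all genes tested. Timm22, the channel of the inner-membrane carrier translocase (chromosome 11, 76406952 to 76416292, + strand), had values of 1.10 to 2.73 in litter 1 and 3.74 to 6.50 in litter 2, with no overlap (3.74 ± 0.64, adjusted p = 0.000421). Tomm5, a small subunit of the outer-membrane translocase, gave 3.35 ± 0.58 (adjusted p = 0.000506). Lower was Timm21, a subunit of the presequence translocase (-2.50 ± 0.64, adjusted p = 0.0116), but not in Dppa2/4-/- embryos alone, without the Dppa2/4+/- embryo of litter 2, or with no filter on level. The number higher was 3 without Dppa2/4-/- embryo b of litter 1 and 5 without the Dppa2/4+/- embryo of litter 2 or in Dppa2/4-/- embryos alone. Of 69 mitochondrial ribosomal protein genes 9 were higher and none was lower (median 1.01), led by Mrpl22 and Mrpl15 (3.16 ± 0.58 and 3.15 ± 0.62). This stands beside 5.42% higher over all genes tested, and the number was 4 to 14 when 1 embryo was left out, 4 without the Dppa2/4+/- embryo of litter 2, and 5 in Dppa2/4-/- embryos alone. For the import and the mitochondrial ribosomal lists alike, 5 of 8 embryos of litter 2 had a score above all of litter 1.

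The 13 mRNAs of the mitochondrial genome itself all had a difference above 0 (median 0.68), and 1 passed. This was mt-Cytb, the cytochrome b gene, with 13.44 to 14.92 in litter 1 and 14.20 to 15.68 in litter 2 (0.96 ± 0.31, adjusted p = 0.0402). The most abundant, mt-Co1, did not pass (0.78 ± 0.31, adjusted p = 0.094). A count of 1 of 13 is near the 5.42% of all genes tested. No member passed under median re-centring or upper quartile scaling, in Dppa2/4-/- embryos alone, or without any 1 of Dppa2/4+/- embryo d and Dppa2/4-/- embryos b and c of litter 1, or of the Dppa2/4+/- embryo and Dppa2/4-/- embryos e and g of litter 2, and up to 3 passed without others.

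**Figure D3:**
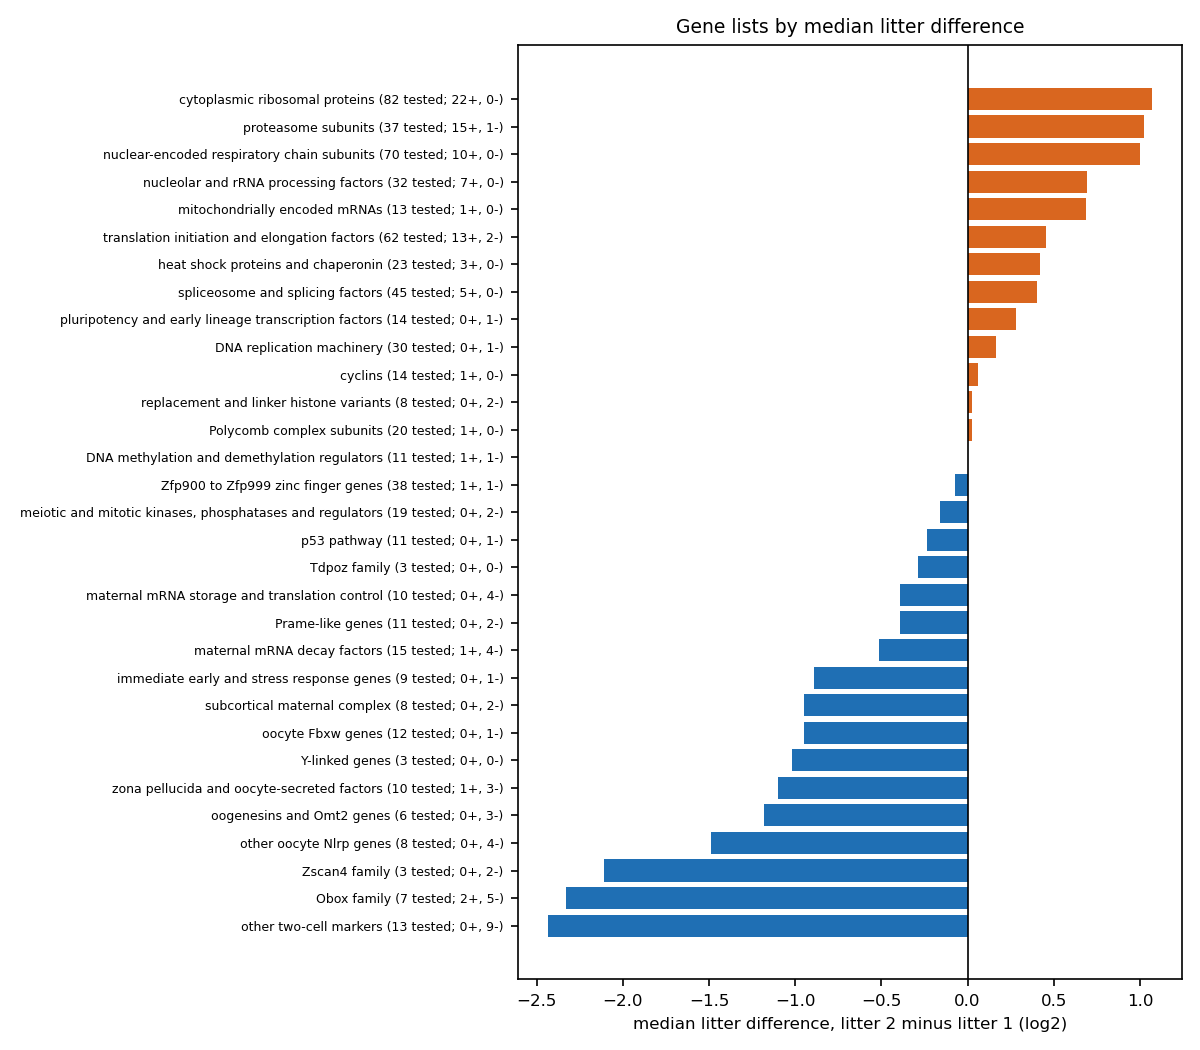
Median litter difference (bars, litter 2 minus litter 1, log2 RPM) of the members tested in each gene list with 3 or more of them, without the lists added after the values were seen, with the number of members higher and lower given beside it. Lists of two-cell and oocyte genes lie below 0 (for example -2.43 for the other two-cell markers) and those of ribosomal proteins (1.07), proteasome subunits (1.02), respiratory chain subunits (1.00) and mitochondrially encoded mRNAs (0.68) lie above 0, beside a median of -0.018 over all genes tested.

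Single genes with the largest differences crossed these classes. Nipal1, a magnesium transporter gene (chromosome 5, 72647795 to 72671078, + strand), had a log2 RPM of 1.10 to 4.76 (median 1.32) in litter 1 and 5.56 to 7.65 (median 6.39) in litter 2 (4.67 ± 0.61, adjusted p = 1.81e-05). Cox17, the copper chaperone of cytochrome oxidase (chromosome 16, 38346991 to 38352763, + strand), had 1.10 to 2.54 against 4.50 to 5.85 (3.50 ± 0.59, adjusted p = 0.000374). Neither gene overlapped. The pyrimidine synthesis gene Umps (3.40 ± 0.56), the cochaperone gene Dnajc12 (3.42 ± 0.59) and Gemin2, of the SMN complex (3.51 ± 0.66), were of the same order. Gm26917, an unnamed transcript, had the largest fitted difference, 4.95 ± 1.02 (adjusted p = 0.00237), but it overlapped, and its litter 2 values of 3.38 to 11.71 were highest in Dppa2/4-/- embryos g, h and j, at 11.23, 11.71 and 9.91, followed by the Dppa2/4+/- embryo at 8.17.

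Among the genes that were lower, AA545190 had 6.05 to 7.75 (median 7.31) in litter 1 and 1.10 to 4.83 (median 3.00) in litter 2, with no overlap (-4.57 ± 0.63, adjusted p = 3.70e-05). Gm12823 had the largest fitted difference (-5.59 ± 0.77, adjusted p = 3.52e-05) with overlap, from 6.18 to 9.75 in litter 1 and from 1.10 to 6.52 in litter 2. Bambi, a decoy receptor of the BMP and TGF-beta pathway, gave -4.08 ± 0.66 (adjusted p = 0.000267), and the netrin receptor gene Dcc gave -3.86 ± 0.65 (adjusted p = 0.000389). Neither overlapped. Differences of genes with embryos at the floor of 1.10 depend on that floor.

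**Figure D4:**
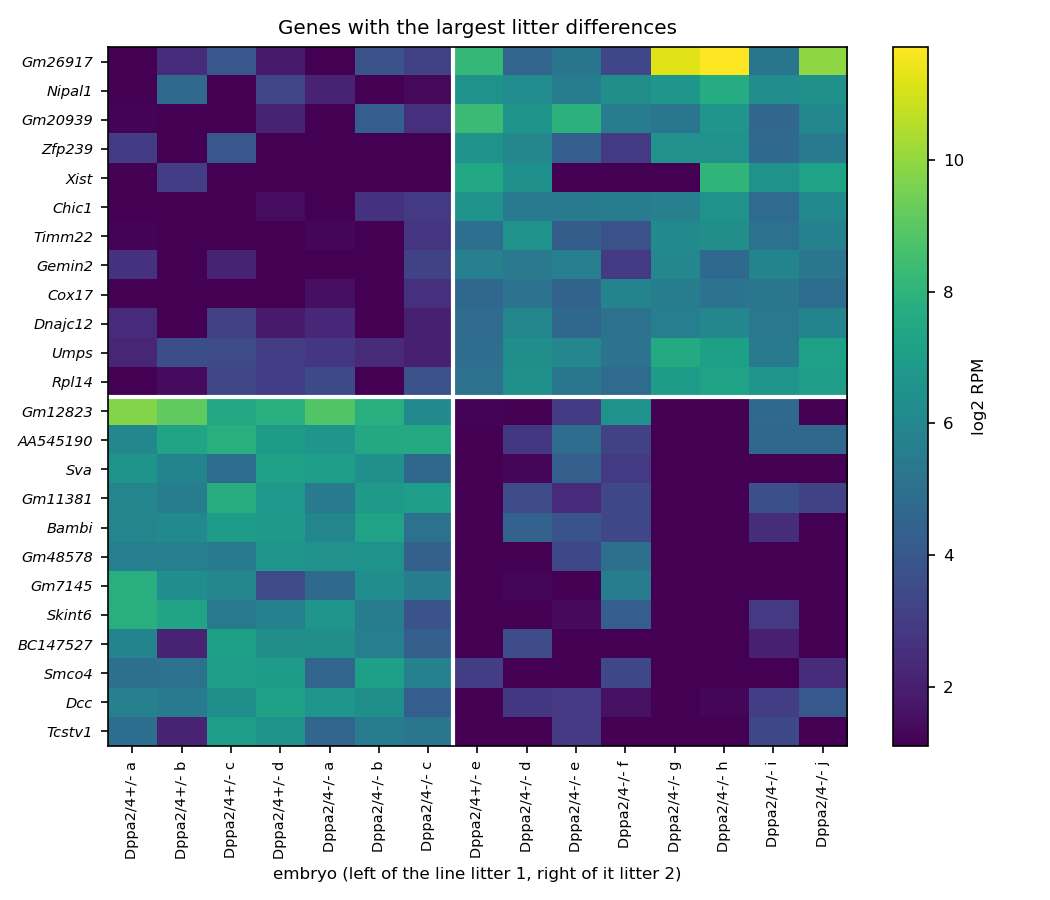
Log2 RPM in each of the 15 embryos of the 12 genes with the largest positive and the 12 with the largest negative litter difference. They were chosen by fitted difference among called genes with a mean of at least 20 RPM and the same sign in both genotypes. Columns are embryos, litter 1 to the left of litter 2, rows are genes, and colour gives log2 RPM. Nipal1, Chic1, Timm22 and Cox17 are higher in all 8 embryos of litter 2, and AA545190, Sva and Dcc are lower in all 8.

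Of these genes, Xist and Chic1 are on the X chromosome. Xist, the RNA that coats the inactive X, passed the test (4.07 ± 1.03, adjusted p = 0.0109), but not in Dppa2/4-/- embryos alone (adjusted p = 0.11), without the Dppa2/4+/- embryo of litter 2 (adjusted p = 0.0991), with limma voom on the recovered reads or with no filter on level. It gave 0, 9, 0 and 1 reads in the Dppa2/4+/- and 1, 0 and 0 reads in the Dppa2/4-/- embryos of litter 1. In litter 2 it gave 295 reads in the Dppa2/4+/- embryo and 36, 0, 0, 0, 216, 111 and 84 reads in Dppa2/4-/- embryos d to j. Reads from the Y chromosome were used to read this against the sex of the embryo, since Xist is not expressed from the single X of males. They numbered 592, 0, 57 and 0 in the Dppa2/4+/- and 0, 147 and 138 in the Dppa2/4-/- embryos of litter 1, and 0 in the Dppa2/4+/- and 1, 295, 112, 43, 3, 0 and 6 in the Dppa2/4-/- embryos of litter 2.

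Embryos with 40 or more Y reads numbered 4 of 7 in litter 1 and 3 of 8 in litter 2, and Xist was at 0 reads in each. Among the embryos with at most 6 Y reads, Xist was 1 to 9 reads in the 3 of litter 1 and 36 to 295 in the 5 of litter 2. Chic1 (chromosome X, 103356476 to 103396092, + strand) differed from Xist in that it was high in all 8 embryos of litter 2, at 4.83 to 6.55, against 1.10 to 2.90 in litter 1 (3.99 ± 0.59, adjusted p = 8.23e-05). Of 305 X-linked genes tested 18 were higher and 22 were lower (median 0.08), and of 9259 autosomal genes 500 and 586 (median -0.02).

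**Figure D5:**
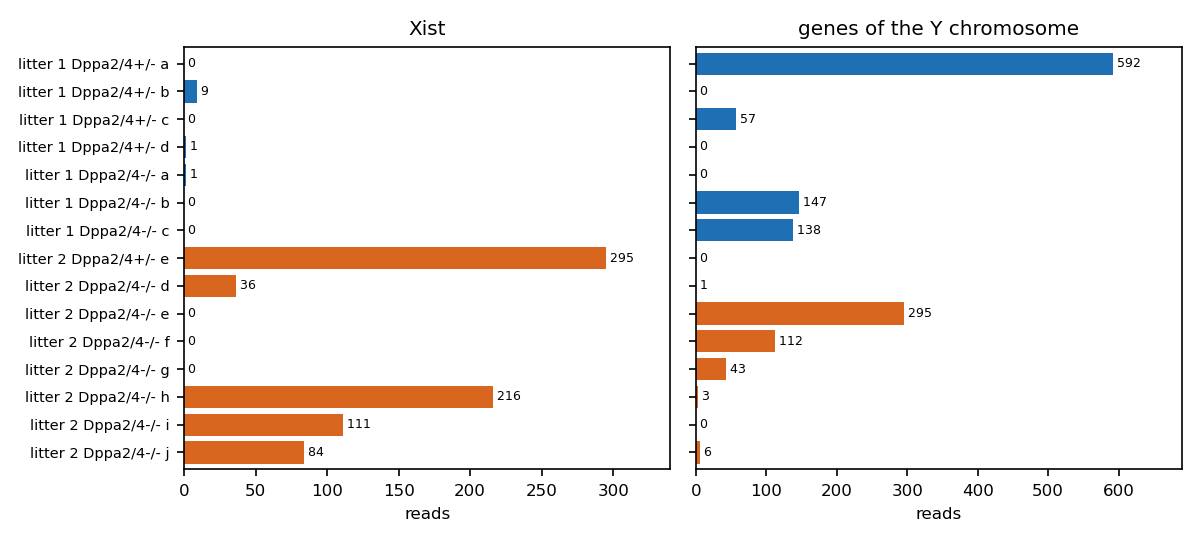
Reads of Xist (left) and of all Y-chromosome genes (right) in each of the 15 embryos, as bars on linear axes with the number of reads printed beside each bar, litter 1 in blue and litter 2 in orange. Embryos with 40 or more Y reads had 0 Xist reads in both litters, and the embryos with at most 6 Y reads had 1 to 9 Xist reads in litter 1 and 36 to 295 in litter 2.

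Set beside the other crosses, the classes took different levels in different litters, given here as summed RPM with no test. The Tcl1 and Tcl1b genes had a median of 4536 RPM (1363 to 9366) in litter 1 and 638 RPM (237 to 1017) in litter 2. In the matings of Dppa2/4m- females with wild-type males they had 798 RPM (155 to 2654) in mating 1 and 8502 RPM (1629 to 11801) in mating 2, and in those of control females 577 RPM (107 to 832) and 937 RPM (676 to 1181). The median of litter 1 thus lay between those of the Dppa2/4m- litters from wild-type sires, and that of litter 2 lay between those of the control litters.

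The oogenesins and Omt2 genes had a median of 14165 RPM (12766 to 17388) in litter 1 and 5915 RPM (2407 to 10664) in litter 2. The other Dppa2/4m- litters had 6124 and 16216 RPM, and the control litters 6508 and 9726 RPM. Ribosomal proteins had medians of 5515 and 12869 RPM in litters 1 and 2, of 9831 and 6507 RPM in the Dppa2/4m- litters from wild-type sires, and of 7672 and 9489 RPM in the control litters. Proteasome subunits had 2723 RPM (2448 to 2861) in litter 1 and 5169 RPM (2610 to 6912) in litter 2, beside 3996 and 2398 RPM, and 3791 and 3199 RPM, in the other pairs. For ribosomal proteins the ranges of the 6 litters overlapped in part, and the lowest and the highest single embryo were 2702 RPM, in mating 2 of the Dppa2/4m- females and wild-type males, and 18869 RPM, in litter 2.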

How the data were processed

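Single two-cell embryos were sequenced by Smart-seq2 after mRNA capture. Per the study's methods and the submitters' processing notes, the authors trimmed reads with Trim Galore 0.6.5 (cutadapt 2.3), aligned them to GRCm38 with HISAT2 2.1.0 and counted them without regard to strand over mRNA probes. The authors deposited log2 RPM values for 35269 genes per embryo, in which a gene with no read was set to 0.9 read; 99.9997% of values came back to whole reads within 0.05 read. Reads had no molecular identifiers, so depth limits counting error only, and at low levels few reads stand behind a value. Antisense and overlapping genes cannot be told apart.

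Values were raised to a common floor of 1.10 log2 RPM, the value of no read in the shallowest embryo, which understates differences of low genes. Genes with a mean of at least 5 RPM over the 15 embryos (9580) were fitted with limma 3.58.1 (R 4.3.3, trend, genotype and litter as terms) and adjusted by Benjamini-Hochberg at 0.05. Library measures were tested by exact permutation of litter within genotype, two-sided. Code was tested on simulated data. No pair of embryos held identical values.

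Genes named were Dppa2 and Dppa4, the 12 largest called differences in each direction with a mean of at least 20 RPM, and for each list up to 4 called members and the most abundant. The 12 were taken from genes with a difference of the same sign in Dppa2/4+/- and in Dppa2/4-/- embryos. Ythdf2, Timm21, Obox3 and Obox5 were singled out after their values were seen. The embryos and the lists were chosen with earlier results of these data known, and 7 lists (Tcl1, Tcstv, mitochondrial ribosomal and import, aminoacyl-tRNA synthetase, Gm and all Zfp genes) were added after values were seen. Alternatives changed the floor, filter, scaling, model and embryos used. Promoters were taken from RefSeq (GRCm38.p6). A check of promoter composition is void, since 75.6% of genes tested had a promoter in the table.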

Additional observations from a re-analysis of the deposited data

Results flagged for a closer look

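Within each litter, the gap between the highest or lowest embryo and the next was compared with the range of the litter for the named genes and the list scores. Of 378 groups tested 23 lay past the limit, and about 1 in 20 would by chance. No explanation was tested for any of them.

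In litter 1, Dppa2/4+/- embryo b stood apart for Xist (log2 RPM 3.02, next embryo 1.10), for Pramef25 (3.44, next 4.91) and for the score of the maternal mRNA decay factors (-0.16, next 0.22). Wee2 was 9.01 in Dppa2/4+/- embryo c (next 8.45) and Uqcr11 was 4.03 in Dppa2/4+/- embryo d (next 1.73). Of the Dppa2/4-/- embryos, embryo a stood apart for Mrps18c (4.76, next 2.61) and Zfp825 (2.30, next 1.44), and embryo c for Timm22 (2.73, next 1.30), Cox17 (2.54, next 1.52) and Oosp3 (7.55, next 9.12).

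In litter 2, the Dppa2/4+/- embryo e stood apart for Dppa2 (8.88, next 1.10) and Dppa4 (5.77, next 2.02), the genes that define its label, and for Rpl39 (9.33, next 7.64) and Gmnn (7.68, next 8.50). Dppa2/4-/- embryo f stood apart for Gemin2 (2.89, next 4.74), Gm7145 (5.61, next 1.26), Tcp1 (7.38, next 8.47) and Tars2 (1.10, next 3.26). Embryo e stood apart for Zscan4-ps3 (2.30, next 1.10) and Obox7 (3.64, next 1.70), embryo d for BC147527 (3.58, next 2.02), embryo h for Nlrp4f (3.74, next 5.72) and embryo j for the score of the zona pellucida and oocyte-secreted factors (0.35, next -0.29).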

How the results depend on the processing

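The count of 1127 genes (519 higher, 608 lower in litter 2) was 466 with no filter on level (197 and 269), 2370 with array weights (1186 and 1184), 2377 with genotype left out (1362 and 1015), 387 in Dppa2/4-/- embryos alone (232 and 155), 58 in Dppa2/4+/- embryos alone (55 and 3, with litter 2 a single embryo assumed to vary like the rest), and 377 to 1477 with 1 embryo left out (187 to 765 and 190 to 712). The share of called genes that were higher was 46.1%, and 57.3%, 59.9% and 94.8% with genotype left out and in the respective genotypes alone. The interaction gave 1 gene with thinned reads and 0 otherwise. Other settings of floor, filter, scaling and model kept the counts within 1.5 times. With 1 embryo left out, the difference in log2 total reads was -0.70 to 0.023 (above 0 without Dppa2/4-/- embryo a of litter 1), that in genes with a read -1424 to -942 (p up to 0.106) and that in mitochondrial share 3.89 to 7.25 points. Permuted over all embryos, the latter was 4.65 points (exact permutation p = 0.0704). For the 24 genes named by size, an equal sign in both genotypes was required, so fits of either genotype alone could not reverse it. Of the 119 named genes that passed, none changed sign in any setting run. Calls were lost for 54 with no filter, 51 in Dppa2/4-/- embryos alone, 111 in Dppa2/4+/- embryos alone, 43 without Dppa2/4-/- embryo b of litter 1 and 45 without the Dppa2/4+/- embryo of litter 2. The cause was not tested. No paired analysis was possible because the letters of the embryos only name them within a litter. The main limits are 1 litter on each side, 1 Dppa2/4+/- embryo in litter 2, shares in place of amounts, and few reads for low genes.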

Other observations

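Gene groups of chromatin and the cell cycle are given beside the 11.8% of all genes tested that passed in either direction. Of 11 DNA methylation regulators tested, the demethylating dioxygenase gene Tet3 was lower in litter 2 (-1.44 ± 0.38, limma adjusted p = 0.0135) and the maintenance methyltransferase gene Dnmt1 was higher (1.31 ± 0.44, adjusted p = 0.0496), while Dppa3, the most abundant, had a difference of -0.01 ± 0.31 (adjusted p = 0.983). Of 8 replacement and linker histone genes, the oocyte linker histone gene H1foo (-2.47 ± 0.77, adjusted p = 0.0348) and H3f3b (-0.83 ± 0.25, adjusted p = 0.0317) were lower. None of Tet3, Dnmt1, H1foo and H3f3b passed in Dppa2/4-/- embryos alone, without Dppa2/4-/- embryo b of litter 1 or without the Dppa2/4+/- embryo of litter 2. Of 67 replication-dependent histone genes listed 1 reached the level for testing, Hist1h4i, and it did not pass. Of 20 Polycomb genes Mtf2 was higher (0.80 ± 0.25, adjusted p = 0.0375), but not without Dppa2/4-/- embryos b or c of litter 1 or the Dppa2/4+/- embryo or embryo g of litter 2. Nor did Mtf2 pass under median re-centring or upper quartile scaling, or in Dppa2/4-/- embryos alone. Of 30 replication genes Orc5 was lower (-1.74 ± 0.45, adjusted p = 0.012), with none called in Dppa2/4-/- embryos alone. Of 14 cyclins Ccnh was higher (2.57 ± 0.69, adjusted p = 0.0155), but not without Dppa2/4-/- embryo b of litter 1 or the Dppa2/4+/- embryo of litter 2, and Ccnb1, the most abundant, did not pass (adjusted p = 0.448). Of 19 meiotic and mitotic regulators, Fbxo5, an inhibitor of the anaphase-promoting complex, was lower beside Wee2 (-1.07 ± 0.35, adjusted p = 0.0424), but not without Dppa2/4-/- embryos a, b or c of litter 1 or the Dppa2/4+/- embryo of litter 2, among others, and Cdc20 had a difference of 0.04 ± 0.40 (adjusted p = 0.957).

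The next lists stand beside 5.42% of all genes tested that were higher and 6.35% that were lower. A single member called is not read as a result about its list. Of 14 pluripotency and early lineage factors, Pou5f1 was lower (-1.47 ± 0.46, adjusted p = 0.0339), and the median of the list, 0.28, was below 0 in Dppa2/4-/- embryos alone (-0.23). No member was lower without Dppa2/4-/- embryo b or c of litter 1 or the Dppa2/4+/- embryo of litter 2. Of 11 p53 pathway genes Mdm4 was lower (-0.75 ± 0.25, adjusted p = 0.0491), and of 9 immediate early and stress genes 1 was lower, Ddit3 (median of the list -0.89). The calls of Mdm4 and Ddit3 were lost when any of several single embryos was left out, among them Dppa2/4-/- embryos b and c of litter 1 and the Dppa2/4+/- embryo of litter 2. No p53 pathway gene passed under median re-centring or upper quartile scaling, with thinned reads, or in Dppa2/4-/- embryos alone. With thinned reads or in Dppa2/4-/- embryos alone, no immediate early or stress gene passed. None of 3 Y-linked genes tested passed, and of 25 aminoacyl-tRNA synthetases Tars2 was higher (median of the list 0.80), with 0 to 5 members higher when 1 embryo was left out. Zinc finger genes had 11 higher and 12 lower of 210 Zfp genes (median -0.04) and 1 and 1 of 38 from Zfp900 to Zfp999 (median -0.07). The counts of the 210 Zfp genes are near the shares of all genes tested. Of 647 genes with a predicted-gene name (Gm), 25 were higher and 87 were lower (median -0.26), beside 5.42% and 6.35% of all genes tested, and with 1 embryo left out 7 to 30 were higher and 35 to 101 were lower, the lowest counts without the Dppa2/4+/- embryo of litter 2. In Dppa2/4-/- embryos alone 9 were higher and 28 were lower. No test was run on this list, which was added after values were seen. The median transcript length was 2804 bases for genes higher in litter 2, 3200 for genes lower in litter 2 and 3362 for all genes tested, as a description.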
